A study of Mus musculus with 8 samples.

Results

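Hlf-gated cells, barcodes that carried transcripts of blood stem cells and multipotent progenitors, were described across age and sex in mouse marrow. The cells were chosen by measured values, namely their UMIs of 13 genes, their number of genes and their mitochondrial share. Every gene level below therefore comes from the same counts that chose them. A barcode was taken when it held at least 1 unique molecular identifier (UMI, 1 counted RNA molecule) of Hlf and transcripts of at least 3 of the 6 genes Hlf, Mecom, Mllt3, Procr, Ly6a and Cd34. Fewer than 2 of the 5 megakaryocyte (Mk) genes Gp5, Gp6, Gp9, Trpc6 and Rab27b, and no UMI of the 2 endothelial genes Cdh5 and Kdr, were allowed. Barcodes with 500 to 12000 genes and at most 15% mitochondrial UMIs were kept, and 209 of the 23222 kept barcodes (0.900%) met the rule, out of 48290 barcodes in the files.

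The marrow came from C57BL/6 mice in 4 pools, which were young females (3 months, 6 mice), old females (more than 24 months, 6 mice), young males (3 months, 6 mice) and old males (more than 24 months, 5 mice). All 4 pools were enriched for CD41 and CD42d, surface proteins of Mk and platelets, with magnetic beads and by flow sorting, so only stem and progenitor cells that passed this enrichment could be captured. Each pool gave 1 femur and 1 tibia library. Both libraries of a pool share their mice, and within a sex 1 pool stands for each age. In the gene tests of age and sex the spread is therefore that between 2 bones of 1 pool and not between mice, except where the bones of a pool were summed. The exact permutation tests shuffle age over the 8 libraries as if these were independent, which they are not. The libraries held between 20707363 UMIs (old female tibia) and 104436964 UMIs (young male femur). The Hlf-gated cells numbered 61 in the young and 121 in the old male pool, but only 15 in the young and 12 in the old female pool, so 27 were female and 182 male. Their UMIs summed to 757709 and 599277 in young and 741195 and 486734 in old males, and 136295 and 155729 in young and 155476 and 94654 in old females. Levels are given in CPM, counts scaled to the same total in every sum, with the femur before the tibia.

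Haematopoietic stem cells sit at the top of the blood hierarchy and are mostly quiescent, and multipotent progenitors below them divide more often. Hlf, Mecom and Mllt3 encode nuclear factors that keep stem cells in that state, Procr encodes the endothelial protein C receptor, a surface marker of stem cells, Ly6a encodes Sca-1, and Cd34 marks mouse multipotent progenitors more than long-term stem cells. In old mice stem cells are known to accumulate, to lean towards the platelet lineage and to express a recurring set of genes that includes Selp, Nupr1 and Vwf.

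The gate genes chose the cells, so their values are a description and were not tested. Hlf stood at 321 and 270.3 CPM in young and 731 and 851 CPM in old males, and 103 and 109 CPM in young and 592 and 581 CPM in old females. Mecom stood at 524 and 305 CPM in young and 2573 and 2184 CPM in old males, and 205 and 103 CPM in young and 3100.2 and 2293 CPM in old females. Cd34 had the opposite order in males, with 218 and 249 CPM in young and 28.3 and 24.7 in old libraries. In females it was detected in 2 of 8 and 5 of 7 young cells and in 3 of 9 and 2 of 3 old cells, without such an order. The same gate thus took cells with different levels of its own genes at the 2 ages. Whether the mix of cells or the level per cell differed was not tested. Procr without Cd34 was found in 44 of 133 old and 4 of 76 young cells, and Cd34 without Procr in 12 old and 43 young cells. Hlf was at 1 UMI in 26 old and 32 young cells, and its median was 6 UMIs in old and 2 in young cells. In the young females 7 of 8 femur cells and 4 of 7 tibia cells rested on a single Hlf UMI, and Mecom was detected in 3 of 8 and 3 of 7. The name of stem and multipotent progenitor cells thus rested on genes that chose the cells and on few molecules in young females, and the genes of granulocyte-macrophage progenitors described below go against it in part of the libraries. For this reason the cells are called by their gate.

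At the edges of the gate the values were as follows. The 57 old cells with exactly 3 markers held 2307 CPM of Mecom and 1579.7 CPM of Il1rapl2, and 45 old barcodes just outside, with 2 markers, held 40.4 and 39.0 CPM. Mecom is one of the markers counted, so its drop was fixed by the rule. The 42 young cells with exactly 3 markers held 242 CPM of Mecom and 648 CPM of Meis1, and 106 young barcodes with 2 markers held 13.9 and 114 CPM. On the Mk side, 164 of the 209 cells had 1 Mk gate gene, which was Trpc6 in 133 cells of the total, and 2331 other barcodes met the marker rule but held 2 or more Mk genes. The 203 old barcodes with exactly 2 Mk genes held 1870.0 CPM of Mecom, 1155 of Il1rapl2 and 2460.4 of Meis1, against 2701, 2143 and 2133 CPM in the 114 old cells with 1 Mk gene. The 204 young barcodes with 2 Mk genes held 791 CPM of Mecom and 2031 of Meis1, against 610.5 and 1225 CPM in the 50 young cells with 1, so these levels are not particular to the Hlf-gated cells. Hlf itself was detected in 3648 of 6082 Mk barcodes (60.0%), those with at least 3 of the 5 Mk genes, so Hlf did not separate the cells from Mk.

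RNA of other cell types lay in part of the cells. Of the 209 cells, 19 held over 1% of UMIs from immunoglobulin genes or from 10 neutrophil genes, of which 10 were old (7 from the old male tibia) and 9 young. The cells with over 20% of such UMIs were all young. A femur and a tibia cell of the young females had 51.2% and 53.9% immunoglobulin UMIs, and 6 young cells had between 23% and 40.1% neutrophil UMIs, of which 4 came from the young male femur. The 10 neutrophil genes together stood at 83041 and 706 CPM in young females, 33475 and 3401 in young males, and between 243 and 449.9 CPM in the 4 old libraries, with S100a8 the most abundant over all libraries. The 10 plasma cell genes stood at 47140.4 and 56894 CPM in young females and between 42.3 and 1341 CPM elsewhere, led by Igha, which was at 0 in the old female tibia. The 10 basophil and mast cell genes reached 20433 CPM in the young female tibia, with Prss34 alone at 9106 CPM, against 444 to 3955 CPM in the other libraries. The 5 granulocyte-macrophage progenitor genes stood at 3707 and 3266 CPM in young and 413 and 3583 CPM in old males, and 690 and 2479 CPM in young and 527 and 11695 CPM in old females. Except in young males, the tibia was well above the femur. One of the 3 cells of the old female tibia had 63289 of the 94654 UMIs of that sum, with 386 UMIs of Mpo, 4 of Hlf and 0 of Il1rapl2. The level of Il1rapl2 in this library therefore comes from the other 2 cells. Erythroid genes were at 0 to 46.2 CPM, and the T and natural killer genes at 0 to 412 CPM. Nkg7 led the latter, and all 10 of them were at 0 in the young female femur. Old cells had more mitochondrial UMIs than young cells, with medians of 6.08% and 3.24%, and fewer UMIs in all, with medians of 9663 and 19714. Most of these cells were male. In the female femur the order of UMIs was reversed, with medians of 16259 in old and 8630 in young cells, while the female tibia had 19390 and 25382. No barcode of an Hlf-gated cell occurred in more than 1 library, while 77 kept barcodes did over the 28 pairs of libraries. Scrublet called 4 of the 209 cells and 172 kept barcodes (0.741%) doublets, and in 4 libraries it marked under 0.5%, so doublets may remain.

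Hlf-gated cells were a larger share of kept barcodes in old than in young libraries of the same sex. The share was 0.671% (36 of 5366) and 0.696% (25 of 3590) in young males, and 2.35% (70 of 2976) and 1.66% (51 of 3074) in old males. Females had lower shares at both ages, with 0.219% (8 of 3660) and 0.220% (7 of 3179) in the young and 1.10% (9 of 817) and 0.536% (3 of 560) in the old pool. The old library was higher in 4 of 4 matched bones, 5.04-fold and 2.43-fold in females and 3.51-fold and 2.38-fold in males, but old females and young males overlapped. By pool the share was 0.219% (95% Wilson interval 0.133 to 0.362%) in young and 0.871% (0.499 to 1.52%) in old females, and 0.681% (0.531 to 0.874%) in young and 2.0% (1.68 to 2.38%) in old males. These intervals cover counting error only. The mean over libraries was 1.41% in old and 0.452% in young mice, and the difference of 0.961 percentage points did not pass an exact two-sided permutation test over the 8 libraries (p = 0.0857, smallest possible p = 0.0286). When the bones of a pool were summed, the 4 pools gave an exact permutation p of 0.333, the smallest possible over 6 assignments. With Hlf at 2 or more UMIs the means were 1.17% and 0.256% (exact permutation p = 0.0286), but this limit acts on the gate gene itself and removed 32 of 76 young and 26 of 133 old cells, so nothing is read from it. The difference passed without the old female tibia, the library of 3 cells (difference 1.25 points, exact permutation p = 0.0286). When no Mk gene was allowed, which removed most old cells through Trpc6, the means were 0.215% and 0.157% (exact permutation p = 0.486). The gate also acts on genes whose levels differed with age, such as Mecom, detected in 128 of 133 old and 49 of 76 young cells. The share and its tests are therefore a description. Since it is a share of sorted barcodes, changes in stem cell number, in the cells around them and in gate gene level per cell cannot be told apart.

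**Figure D1:**
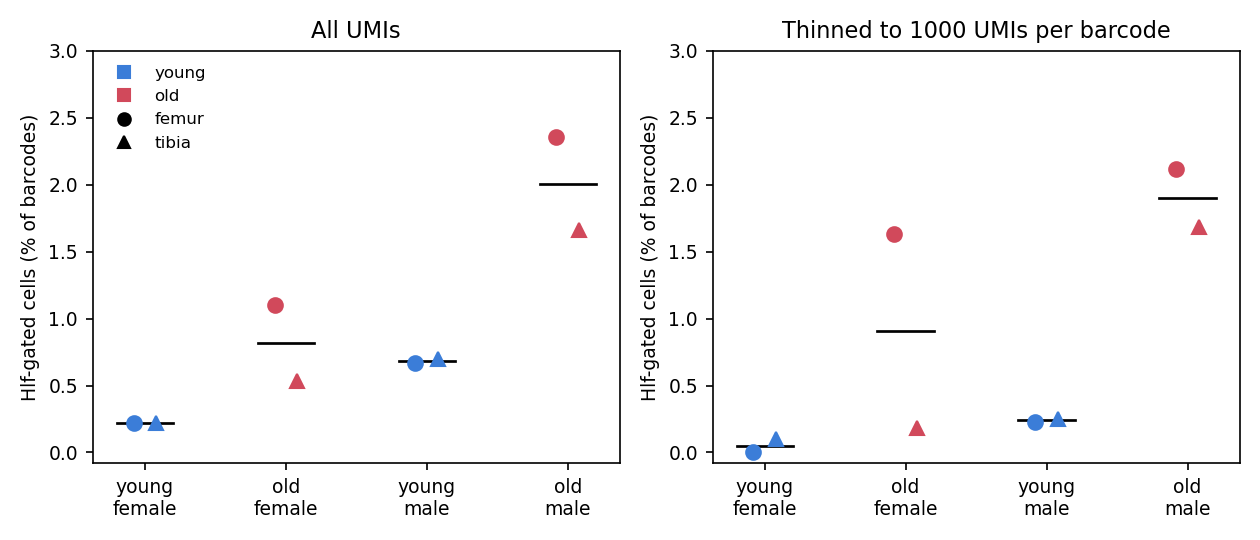
Share of kept barcodes that were Hlf-gated cells in each library (y axis, %), by group (x axis), with all UMIs (left) and after each barcode was thinned to 1000 UMIs (right). Circles are femur and triangles tibia libraries and bars are group means. Old libraries lie above the young libraries of the same sex in both bones, with means of 1.41% and 0.452% on the left and 1.40% and 0.145% on the right.

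With age 506 of 7156 genes tested changed in the summed Hlf-gated cells (7.07%) in edgeR's quasi-likelihood test on the 8 sums, at a Benjamini-Hochberg adjusted p under 0.05. Of these 320 rose (4.47%) and 186 fell (2.60%). The median log2 change over all genes was -0.09, or 0.09 when group sums under 3 counts were raised to 3 counts. Fitted log2 changes of genes without counts in a group depend on the prior count of the fit and are no bounds. The number of calls depended on single libraries, and was 2010 without the old female tibia, 267 and 203 without the young female femur and tibia, 106 and 63 without the young male femur and tibia, and 49 and 73 without the old male femur and tibia, and it was 340 without the old female femur. In each of these 8 fits every one of the 506 genes that was tested kept its sign.

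The highest rises were those of genes nearly silent in young cells. Il1rapl2 (chrX:137570608-138846946, mm10) encodes a membrane protein of the interleukin-1 receptor family and is best known from neurons. It was at 0 CPM in both young female libraries, at 3158 and 1310.0 in old females, at 23.8 and 48.4 in young males and at 1952 and 1719.6 in old males. All 4 old sums lay far above all 4 young sums. The rise was 53.7-fold in males and at least 239-fold in females, the latter against 3 counts over both young female sums (log2 change over both sexes 9.17 ± 0.75 SE, edgeR adjusted p = 0.00342). After each cell was thinned to 1000 UMIs, Il1rapl2 was detected in 90 of 129 old cells (69.8%) and 5 of 76 young cells (6.58%). B cell barcodes, which should lack the gene, gave 0.722% in old and 0.163% in young libraries, with median depths from 5420 to 16613 UMIs per library against 6703 to 25382 UMIs for the Hlf-gated cells. The genes of this detection measure were chosen after their levels were seen.

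Kcnb2, a voltage-gated potassium channel subunit, had no count in any young library. It stood at 1042 and 31.7 CPM in old females and 608 and 337 CPM in old males, at least 64.2-fold and at least 227-fold higher (log2 10.54 ± 1.53 SE, edgeR adjusted p = 0.0111). Groups did not overlap, but the old female tibia rested on 3 counts. Nupr1, a stress-induced chromatin protein that recurs in lists of aged stem cells, was at 1.32 and 0 CPM in young and 329 and 362 CPM in old males, and 0 and 0 CPM in young and 180.1 and 21.1 CPM in old females. Young males held a single count of it, so no male fold is given (log2 8.33 ± 0.93 SE, edgeR adjusted p = 0.00411). Chrm3, a muscarinic acetylcholine receptor, was absent from young females and from the young male tibia, stood at 30.4 CPM in the young male femur and reached 1319 and 148 CPM in old females and 622 and 401 CPM in old males. Its rise was 31.5-fold in males and at least 85.2-fold in females (edgeR adjusted p = 0.0142), and its 23 counts in the young male femur came from 1 cell of the 76 young cells.

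The other genes of the 10 highest rises were Ncam2, Shisa9, Il1rapl1, Dnm3, Matn4 and Runx1t1. Ncam2, a neural cell adhesion molecule, was highest in old females, with 829.7 and 1870.0 CPM against 70.2 and 127 CPM in old males, and reached 19.8 CPM at most in young libraries. Dnm3, a dynamin that takes part in membrane traffic, stood at 489 and 148 CPM in old females, 209 and 253 CPM in old males, and 0, 0, 11.9 and 0 CPM in the young libraries. Runx1t1, a corepressor known from a leukaemia fusion with Runx1, stood at 283 and 127 CPM in old females, 72.9 and 101 CPM in old males and at most 3.96 CPM in young libraries. All 10 genes were chosen as the largest rises that had the same sign in both sexes and bones, and for each the 4 old sums lay above the 4 young sums. Over all genes tested this was so for 600 (8.38%). The choice of the 10 genes favoured such an order, so nothing is read from it. The calls of the named rises and falls depended on single libraries too. Fewer of them passed whenever a library other than the old female tibia was left out, though each kept its sign where tested. Among these rises Matn4 missed the threshold with at least 4 markers (edgeR adjusted p = 0.0535), and Ncam2 did so with thinning to 1000 UMIs (edgeR adjusted p = 0.116). With no Mk gate gene allowed, 7 of the named rises and falls could be tested and 0 passed.

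**Figure D2:**
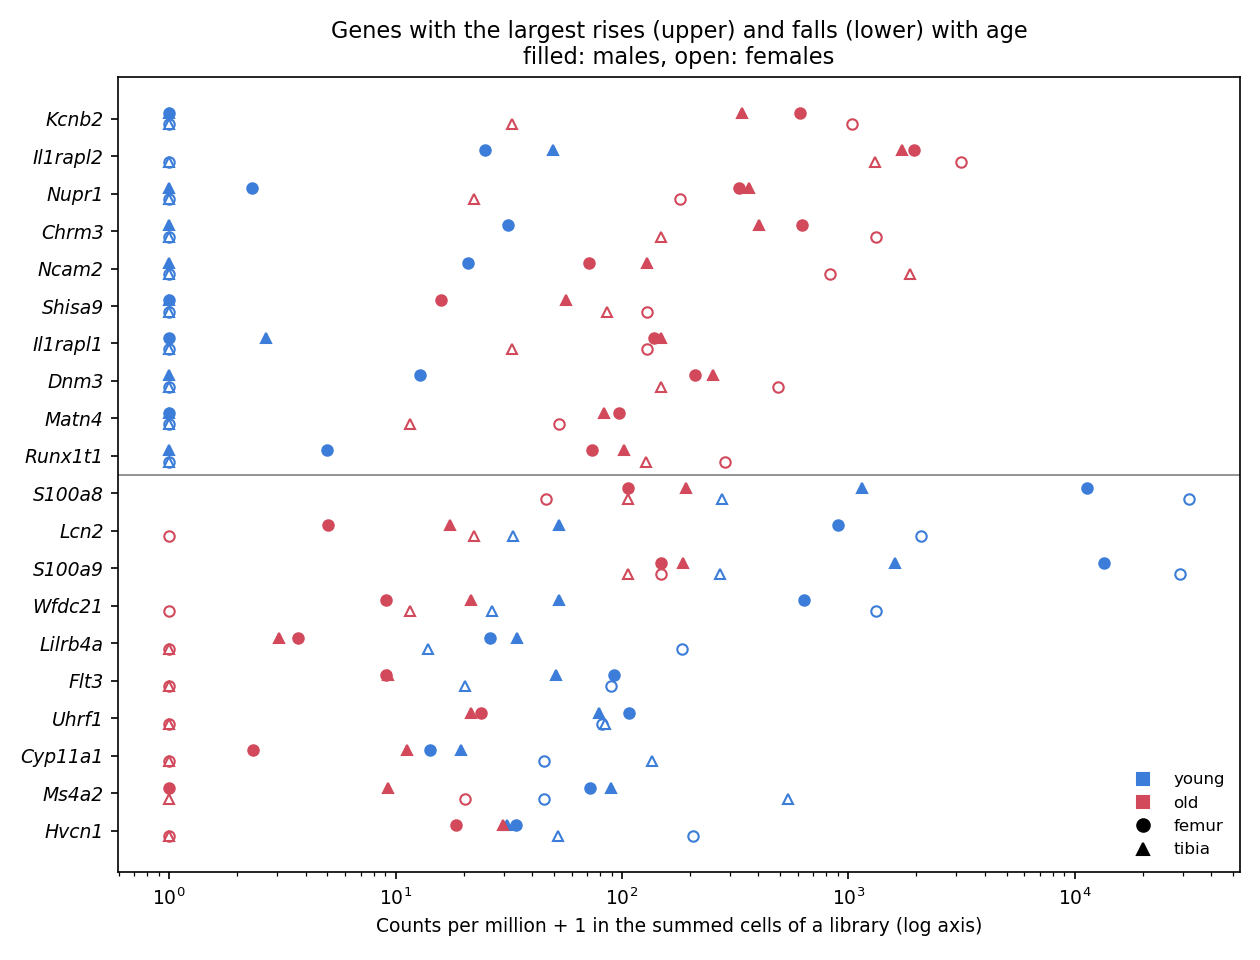
Level of the 10 leading rises and 10 leading falls with age (genes on the y axis) in the summed Hlf-gated cells of each library (x axis, CPM + 1, log axis). Blue is young and red old, filled marks are males and open marks females, circles are femur and triangles tibia. Il1rapl2 reached 1310.0 to 3158 CPM in old and at most 48.4 CPM in young libraries, and S100a8 was above 1000 CPM in 3 of 4 young libraries only.

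Among genes known from aged stem cells most of those tested rose. Of 28 listed, 26 were abundant enough to test, 21 rose and none fell, with a median log2 change of 5.17, or 3.36 with low sums raised to 3 counts. Without the young male tibia or the old male femur 7 genes of the list passed, without the old male tibia 8, and without any 1 of the other libraries between 15 and 26, with no fall in any of these fits. Genes almost absent from young cells passed the abundance filter through the old libraries, so the count describes the list and supports nothing beyond it. The list holds 4 genes (Il1rapl2, Chrm3, Magi2 and Zg16) put there because they had stood out in these libraries before. Without them 17 of 22 rose, with a median of 4.51, or 3.14 with 3 counts. Selp, the platelet adhesion protein P-selectin, stood at 18.5 and 6.67 CPM in young and 175 and 219.8 CPM in old males, and 7.34 and 0 CPM in young and 129 and 95.1 CPM in old females (log2 4.27 ± 0.53 SE, edgeR adjusted p = 0.00411). Vwf, von Willebrand factor, stood at 27.7 and 60.1 CPM in young and 252 and 177 CPM in old males, and 0 and 6.42 CPM in young and 296 and 106 CPM in old females (log2 3.89 ± 0.53 SE, edgeR adjusted p = 0.00554). For both genes every old sum was above every young sum. The same held for 18 of the 26 genes, against 8.38% of all genes tested. Those 26 include the 4 genes put there from these libraries, and the abundance filter acts on this count too, so nothing is read from it. Clu, which encodes clusterin, Aldh1a1, a retinal dehydrogenase, and Ehd3 passed the test with overlapping groups. Among the few cells without any Mk gate gene only 5 genes of the list could be tested and none passed (4 of 5 had a positive change).

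In single cells the list was compared as a description, since 4 of its genes were put there for these libraries. Its UMIs per 10000 had a median of 69.6 in the 133 old cells (range 0.958 to 179.1) and 4.09 in the 76 young cells (range 0 to 91.4). Above 20 per 10000 lay 118 old cells and 4 young cells, all 4 from young males. Without Il1rapl2, Chrm3, Magi2 and Zg16 the medians were 34.9 and 3.37, and 109 old cells and 1 young cell lay above 20. The highest young cell, from the femur, had 28 UMIs of Mecom and 5 of Il1rapl2 at 4375 UMIs in all. At the other end 15 old cells lay at or below 20 per 10000, as did most young cells. The cells of 1 library share mice and preparation, so these counts are descriptions.

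**Figure D3:**
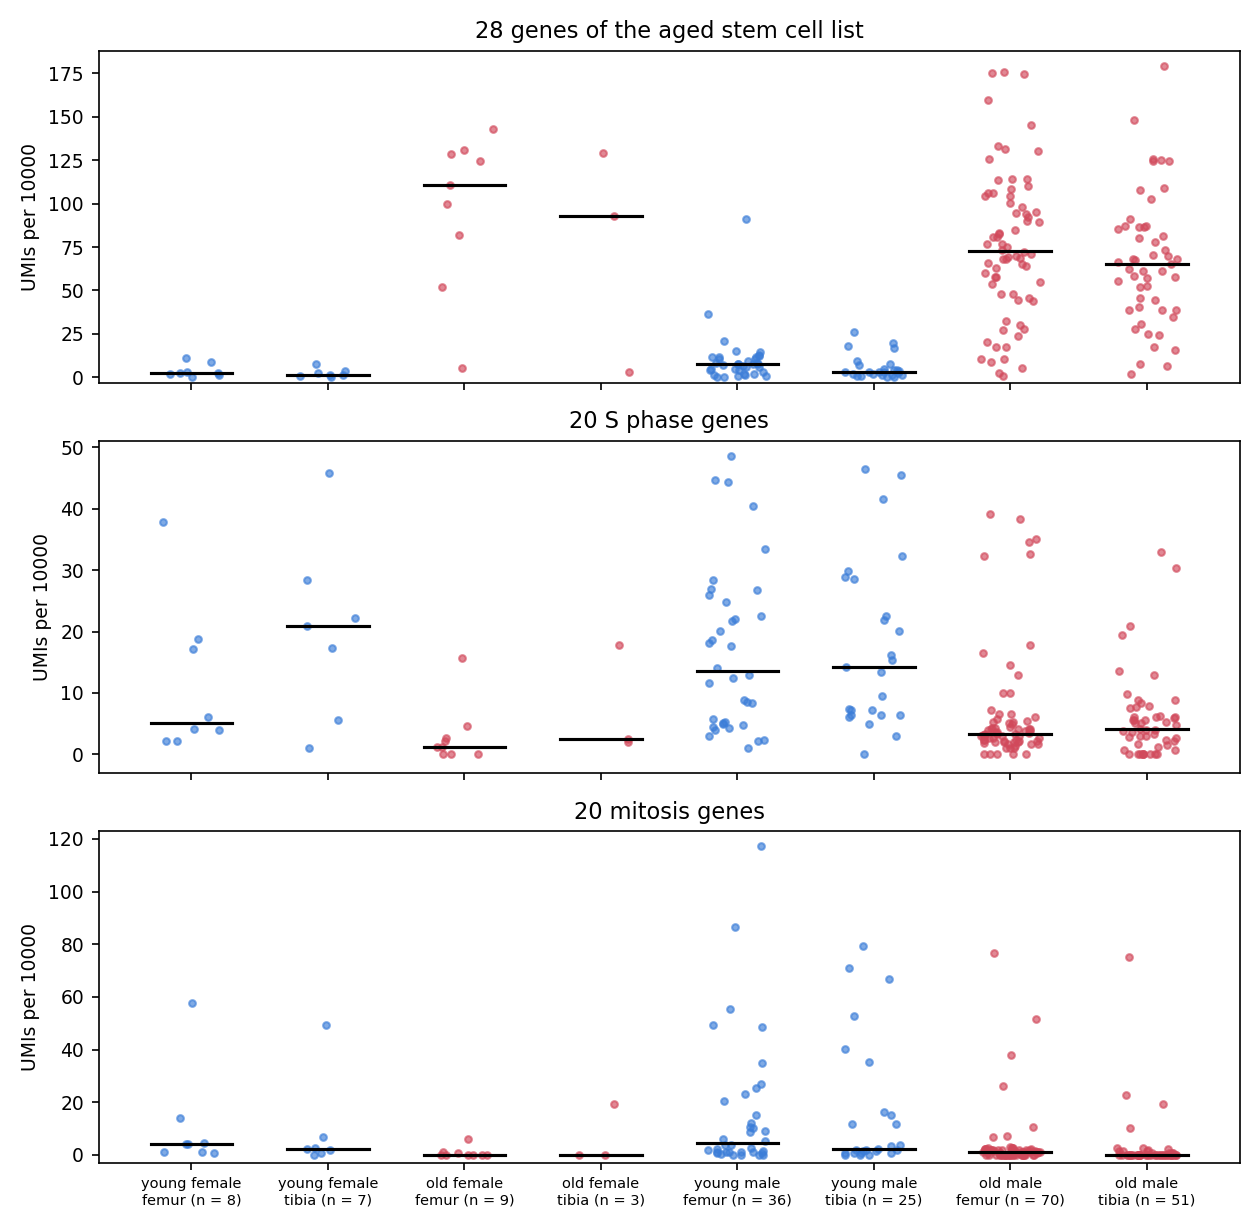
UMIs per 10000 (y axes) of the 28 genes of the aged stem cell list, of 20 S phase genes and of 20 mitosis genes in each Hlf-gated cell, by library (x axis, n cells). Black bars are medians. In the upper panel 118 of 133 old but 4 of 76 young cells lie above 20, and in the middle panel the median is 3.52 over old and 14.1 over young cells.

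Transcription factors of stem cells rose in part. Of 20 listed, 17 were tested, 4 rose (Meis1, Erg, Prdm16 and Zfp521) and none fell (1 rose without the young female femur or any 1 of the male libraries, 2 without the young female tibia and 8 without the old female tibia), with a median log2 change of 0.73 (0.90 with low sums raised to 3 counts). Prdm16, which maintains stem cells and their mitochondria, stood at 55.4 and 30 CPM in young and 282 and 364 CPM in old males, and 0 and 0 CPM in young and 572 and 222 CPM in old females, 7.11-fold higher in males and at least 42.8-fold in females (edgeR adjusted p = 0.0039). Meis1, a homeobox partner of Hox proteins, stood at 995 and 959 CPM in young and 2207 and 1674 CPM in old males, and 213 and 276 CPM in young and 2335 and 1056 CPM in old females (log2 1.72 ± 0.40 SE, edgeR adjusted p = 0.034). Old and young did not overlap for either, with the young male femur next to the old female tibia for Meis1. Gata2, a factor of stem and mast cells, and Hoxa9 did not pass, with Gata2 at 249 and 488 CPM in young females and 277 and 31.7 CPM in old females.

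Receptors and surface proteins had rises and falls. Of 20 listed, 19 were tested, 6 rose (among them Slamf1, Esam, Itga6, Fgd5 and Alcam) and 3 fell (Cxcr4, Flt3 and Cd48), with a median log2 change of 0.82 (1.0 with low sums raised to 3 counts). Fgd5, a guanine nucleotide exchange factor used to mark stem cells, was at 26.4 and 10 CPM in young and 116 and 98.6 CPM in old males, and 0 and 0 CPM in young and 167 and 158 CPM in old females (log2 5.71 ± 0.71 SE, edgeR adjusted p = 0.00504). Slamf1, also CD150, which marks long-term stem cells, was at most 17.2 CPM in young and at least 42.3 CPM in old libraries. Flt3, a receptor of multipotent and lymphoid progenitors that stem cells lack, went the other way. It stood at 91.1 and 50.1 CPM in young and 8.1 and 8.22 CPM in old males, and 88 and 19.3 CPM in young and 0 and 0 CPM in old females, 8.96-fold lower in old males and at least 4.28-fold lower in old females (edgeR adjusted p = 0.0202). Cd48, another progenitor surface protein, stood at 44 to 103 CPM in young and 0 to 31.7 CPM in old libraries (edgeR adjusted p = 0.0421), and Kit, the stem cell factor receptor, did not pass (edgeR adjusted p = 0.0638). Of the 19 genes tested in this list, 7 had every old sum above every young sum, against 8.38% of all genes tested. Another 3 had every old sum below, against 5.31%. The 9 genes that passed were among these, and Slamf1 and Alcam are in the aged stem cell list too. No fall of this list passed without the young female femur or any 1 of the 4 male libraries, and 1 passed with at least 4 markers. The rises numbered 2 without the young male tibia, 3 without either old male library, 4 without the young male femur and 9 without the old female tibia.

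Transcripts of Mk and platelets did not move as a block. The 10 marker genes of Mk summed to between 232 and 1119.8 CPM in the Hlf-gated sums, against 8287 to 12927 CPM in the Mk barcodes of the same libraries. This list includes all 5 Mk gate genes, and both classes were cut on these genes. The gap was therefore fixed by the rule, and nothing is read from it. Of 22 listed, 14 were tested, 6 rose (among them Vwf, Itgb3, Selp, Fhl1 and Mylk) and 1 fell (Pf4), with a median of 1.58 (1.70 with low sums raised to 3 counts, 0.68 without the old female femur, and 0.17 over all 22 genes without the abundance filter), and 4 of the 6 (Vwf, Itgb3, Selp and Fhl1) are also in the aged stem cell list. The rises numbered 3 without the young female tibia or any 1 of the male libraries, and Pf4 lost its call without any 1 of the male libraries. Pf4, platelet factor 4, stood at 212 and 210.3 CPM in young and 209 and 121 CPM in old males, and 161 and 116 CPM in young and 19.3 and 10.6 CPM in old females, and fell over both sexes with overlapping groups (log2 -1.89 ± 0.35 SE, edgeR adjusted p = 0.0147). It passed in females (edgeR adjusted p = 0.0291) and not in males (edgeR adjusted p = 0.717), and the difference between the sexes did not pass. Over both sexes Pf4 was not called with sums per pool, with at least 4 markers or with Hlf at 2 or more UMIs. In thinned cells Pf4 was detected in 16.3% of old and 18.4% of young cells, no more than the 18.5% and 34.5% of B cell barcodes, so its detection was at the background level. Itga2b, which encodes the sorted CD41, stood at 121 and 212 CPM in young and 204 and 98.6 CPM in old males, and 88 and 212 CPM in young and 199 and 31.7 CPM in old females. The share of thinned cells with at least 2 of 8 platelet transcripts was 31.0% in old (40 of 129) and 11.8% in young cells (9 of 76). Its mean over libraries was 19.5% and 7.78% and did not pass (exact permutation p = 0.343, smallest possible p = 0.0571 with tied libraries). The size of this difference depended on the depth. With 2000 UMIs per cell the share was 66.7% and 33.3% in old females, 71.0% and 53.7% in old males, 12.5% and 0% in young females and 33.3% and 20% in young males, so that the ages met at 33.3% (means 56.2% and 16.5%, exact permutation p = 0.0571, the smallest possible with tied libraries). Without thinning it was 94.6% and 86.3% (exact permutation p = 0.286).

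Among the 10 largest falls, 4 were genes of neutrophils (S100a8, S100a9, Lcn2 and Wfdc21), which were high in few cells. S100a8, a calcium-binding protein of neutrophils, stood at 11345 and 1149.7 CPM in young and 105 and 191 CPM in old males, and 31916 and 276 CPM in young and 45 and 106 CPM in old females (log2 -6.72 ± 1.48 SE, edgeR adjusted p = 0.0291). Without the 19 cells rich in immunoglobulin or neutrophil UMIs it stood at 418 and 301 CPM in young females and 116 and 60.8 in young males, and its change was no longer called (log2 -0.80, edgeR adjusted p = 0.255). Lcn2 (log2 -1.45, edgeR adjusted p = 0.315) and S100a9 (log2 -0.70, edgeR adjusted p = 0.230) lost their call likewise. With bone as a block these 3 also missed the threshold, with edgeR adjusted p of 0.0757 for S100a8, 0.0612 for Lcn2 and 0.0535 for S100a9. Flt3, Uhrf1, Cyp11a1 and Ms4a2 kept theirs, with log2 changes from -5.49 to -4.80 and edgeR adjusted p from 0.00402 to 0.0280. Ms4a2 encodes a chain of the high-affinity IgE receptor of mast cells and basophils, and Cyp11a1 a steroid-producing enzyme also found in mast cells. Ms4a2 stood at 71.3 and 88.4 CPM in young and 0 and 8.22 CPM in old males, and 44 and 539 CPM in young and 19.3 and 0 CPM in old females. Its highest level was in the young female tibia, the library rich in basophil genes, and the part of those cells in its fall was not tested. The remaining falls among the 10 were Lilrb4a and Hvcn1, and Hvcn1 lost its call without the 19 cells (log2 -4.20, edgeR adjusted p = 0.0619). Lilrb4a and Wfdc21 were not among the genes tested without these cells. With sums per pool Uhrf1 (edgeR adjusted p = 0.0738), Cyp11a1 (edgeR adjusted p = 0.150) and Hvcn1 (edgeR adjusted p = 0.311) were not called. S100a8, S100a9 and Ms4a2 were not called with at least 4 markers, where the change of Ms4a2 had an SE of 6318.

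Lineage genes of progenitors changed in few members. Of the lymphoid genes, 3 of 12 tested fell (Flt3, Satb1 and Sox4) and none rose (15 listed, median log2 -1.55, or -0.43 with low sums raised to 3 counts). Satb1, a chromatin organiser of lymphoid cells, stood at 71.3 and 103 CPM in young and 8.1 and 14.4 CPM in old males, and 161 and 83.5 CPM in young and 38.6 and 10.6 CPM in old females (log2 -2.72 ± 0.43 SE, edgeR adjusted p = 0.0094). Old and young did not overlap. Of 13 myeloid genes tested of 15 listed, Cebpa fell (log2 -3.26 ± 0.67 SE, edgeR adjusted p = 0.0219) with overlapping groups, and the median was -0.27. Mpo, the myeloperoxidase of granulocyte progenitors, stood at 1795 and 1941 CPM in young and 62.1 and 748 CPM in old males, and 308 and 1034 CPM in young and 392 and 4078 CPM in old females, and did not pass. In thinned cells Mpo was detected in 24 of 76 young (31.6%) and 5 of 129 old cells (3.88%), against 1.53% and 0.241% of B cell barcodes. By sex it was found in 6 of 15 young and 2 of 12 old female cells, and in 18 of 61 young and 3 of 117 old male cells. Erythroid genes were mostly too low to test (4 of 15), and Car2, a carbonic anhydrase, rose with overlapping groups (edgeR adjusted p = 0.0291).

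Genes of DNA replication fell in part. Of 20 S phase genes, 18 were tested, 9 fell (Mcm2, Mcm3, Mcm4, Mcm5, Mcm6, Pcna, Rrm2, Uhrf1 and Hells), none rose, and the median log2 change was -1.56 (-1.49 with low sums raised to 3 counts). For 11 of the 18 the old sums lay below all young sums, against 380 of all 7156 genes (5.31%). Pcna, the sliding clamp of DNA polymerases, stood at 282 and 222 CPM in young and 97.1 and 84.2 CPM in old males, and 249 and 269.7 CPM in young and 32.2 and 116 CPM in old females (log2 -1.83 ± 0.38 SE, edgeR adjusted p = 0.0235). Uhrf1, which carries DNA methylation through replication, stood at 107 and 78.4 CPM in young and 22.9 and 20.5 CPM in old males, and 80.7 and 83.5 CPM in young and 0 and 0 CPM in old females, 4.29-fold lower in old males and at least 6.85-fold lower in old females (edgeR adjusted p = 0.00516). Every young sum was above every old sum for both genes. Genes of mitosis fell in part, with 5 of 15 tested (Mki67, Ccnb2, Cdk1, Nusap1 and Ube2c), none rising, and a median of -2.51 (-2.11 with low sums raised to 3 counts). Mki67, which encodes the proliferation marker Ki-67, stood at 406 and 499 CPM in young and 35.1 and 39 CPM in old males, and 227 and 193 CPM in young and 19.3 and 179.6 CPM in old females (log2 -2.51 ± 0.52 SE, edgeR adjusted p = 0.0235). The mitosis calls were lost without the 19 cells rich in immunoglobulin or neutrophil UMIs (0 of 15, median -2.15) and all but 1 with Hlf at 2 or more UMIs (median -0.67), whereas 9 S phase genes passed in both. With sums per pool 7 of 18 mitosis but 3 of 20 S phase genes passed, with at least 4 markers 0 of 14 and 4 of 14, and with the stricter cell filter 4 of 15 and 5 of 18. Without the old female tibia 19 S phase and 18 mitosis genes passed. Without any 1 of the 4 male libraries 1 and 0 passed, without the young female femur 6 and 0, without the young female tibia 3 and 1, and without the old female femur 4 and 6.

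The share of cells with at least 2 of these genes, after thinning to 1000 UMIs, was lower in old cells. For S phase genes it was 50% and 71.4% in young females (4 of 8 and 5 of 7 cells), 0% and 33.3% in old females (0 of 9 and 1 of 3), 36.1% and 40.0% in young males (13 of 36 and 10 of 25) and 17.1% and 10.6% in old males (12 of 70 and 5 of 47). All young libraries were above all old ones, with means of 49.4% and 15.3% (exact permutation p = 0.0286, the smallest possible). For mitosis genes it was 30.6% and 28% in young and 5.71% and 6.38% in old males, and 12.5% and 14.3% in young and 0% and 0% in old females, again without overlap (means 21.3% and 3.02%, exact permutation p = 0.0286). In the old female femur 0 of 9 cells leaves room for a far higher share, and the old female tibia holds 3 cells. Their shares are thus imprecise, yet the means and the permutation test count every library alike. With 2000 UMIs per cell the differences were -39.6 points for S phase (exact permutation p = 0.0571) and -16.2 points for mitosis (exact permutation p = 0.143), and the ages overlapped in both. For S phase the young female femur then stood at 25% and the old female tibia at 33.3%. With at least 3 genes per cell the S phase difference was -17.8 points (exact permutation p = 0.114) and the mitosis one -17.6 points (exact permutation p = 0.0286). Leaving out either young library of either sex or the old female femur gave an exact permutation p of 0.0571 for S phase, as leaving out any 1 of the 4 old libraries did for mitosis.

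**Figure D4:**
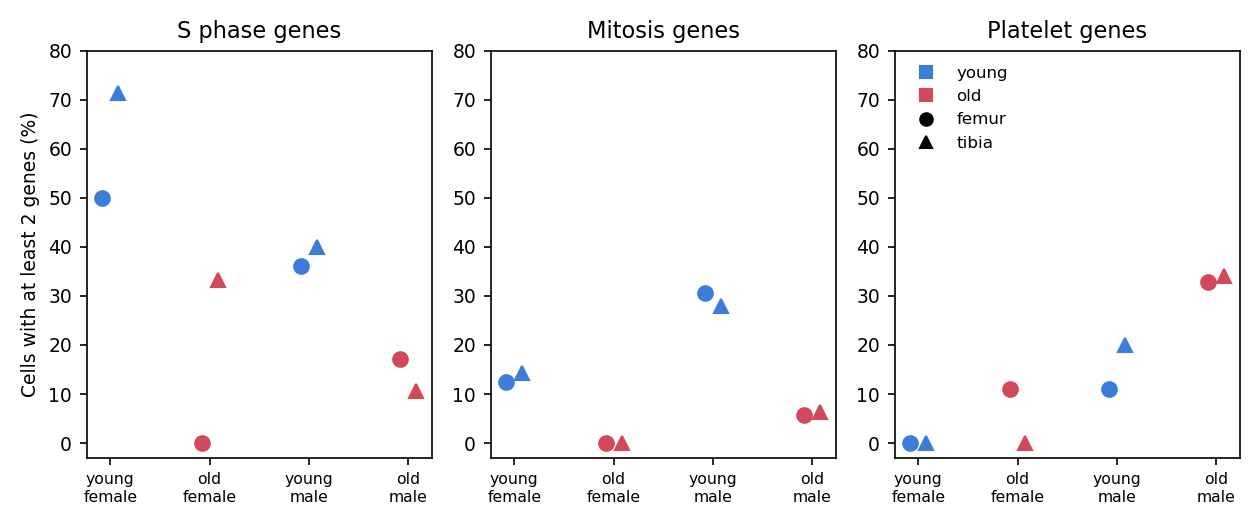
Share of Hlf-gated cells (y axis, %) with at least 2 of 20 S phase genes, 20 mitosis genes or 8 platelet genes after thinning to 1000 UMIs, per library and group (x axis). Circles are femur and triangles tibia libraries. Young libraries lie above old ones for S phase (36.1 to 71.4% against 0 to 33.3%) and mitosis (12.5 to 30.6% against 0 to 6.38%), and the ages overlap for platelet genes.

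Promoter letters, which the gate did not use, were searched for the replication genes. E2F proteins switch on genes of DNA replication through short sites with a core of CGC letters. The 4 motifs TTTGGCGC, TTTCCCGC, TTTGCCGC and TTTCGCGC, searched on both strands and free to overlap, occurred in 611 of 32851 RefSeq windows of 250 bases before a gene's start (1.86%, GRCm38.p6). They occurred in 6 of 20 windows of the S phase list (30.0%), in 4 of 9 windows of its genes that fell (44.4%, 8 of the 9 genes with a window), in 1 of 17 windows of the mitosis list (5.88%) and in 0 of 23 windows of the aged stem cell list. A match describes letters and not binding, and a missing match says only that these letters are not in the window. Most windows of the genes that fell thus held no match. The windows of Uhrf1, the helicase gene Hells and the replication licensing gene Mcm6 are shown, the 3 genes with the lowest adjusted p among those that fell and held a match, 5′ to 3′ on the strand of the gene, with matches in capitals. Uhrf1 (chr17:56304063-56304312, plus strand) and Hells (chr19:38930740-38930989, plus strand) held 1 match each, and Mcm6 (chr1:128359706-128359955, minus strand) held 3, of which 2 overlap.
Uhrf1: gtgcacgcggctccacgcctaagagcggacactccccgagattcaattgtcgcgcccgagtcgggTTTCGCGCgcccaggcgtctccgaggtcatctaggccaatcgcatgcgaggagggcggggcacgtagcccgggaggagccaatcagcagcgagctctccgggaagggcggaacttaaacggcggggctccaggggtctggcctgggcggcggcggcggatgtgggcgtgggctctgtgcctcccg
Hells: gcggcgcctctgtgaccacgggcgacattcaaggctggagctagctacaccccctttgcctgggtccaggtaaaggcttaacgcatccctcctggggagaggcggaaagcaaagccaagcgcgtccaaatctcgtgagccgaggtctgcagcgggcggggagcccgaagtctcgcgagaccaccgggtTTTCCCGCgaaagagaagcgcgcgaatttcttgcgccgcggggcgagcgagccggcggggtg
Mcm6: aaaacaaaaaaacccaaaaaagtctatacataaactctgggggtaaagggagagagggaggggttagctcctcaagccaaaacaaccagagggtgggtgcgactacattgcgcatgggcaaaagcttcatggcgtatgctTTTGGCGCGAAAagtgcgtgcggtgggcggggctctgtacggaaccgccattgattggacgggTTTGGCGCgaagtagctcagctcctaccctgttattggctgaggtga

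Other gene groups changed in few members. Cell cycle inhibitors and cyclins had no change among 14 tested of 20 listed (median log2 -0.31, 4 with an unadjusted p under 0.05, and Cdkn1a at 0 to 61.6 CPM). MHC class I genes, which present peptides to T cells, rose in 3 of 14 (H2-Q4, H2-Q6 and Nlrc5; median 0.13), and in 0 without the young female tibia or any 1 of the male libraries. Nlrc5, the transactivator of this class, stood at 63.3 and 35 CPM in young and 135 and 94.5 CPM in old males, and 29.3 and 6.42 CPM in young and 161 and 264 CPM in old females (log2 2.25 ± 0.45 SE, edgeR adjusted p = 0.0201), without overlap. H2-Q4 and H2-Q6 are near copies of other class I genes, so their reads may be shared. Of interferon-induced genes 8 of 20 were tested and Trim30a rose (log2 1.41 ± 0.31 SE, edgeR adjusted p = 0.0292). Over both sexes no gene passed among 5 MHC class II genes tested of 7 listed (median -0.62), 17 immediate early genes of 20 (median -0.07) and 12 heat shock genes (median 0.21), and none had an unadjusted p under 0.05, but the sexes went opposite ways in the first 2 lists, as given with each sex. None of the 13 mitochondrially encoded respiratory genes passed (median 0.58, 2 with an unadjusted p under 0.05), although for 7 of them every old sum was above every young sum, against 8.38% of all genes tested. The limit of 15% mitochondrial UMIs acts on these genes, so nothing is read from their test or from this count. Of imprinted growth genes 10 of 14 were in the files, 4 were tested, and Igf2r and Grb10 rose. Adhesion and polarity genes had 3 rises (Itga6, Esam and Ptprk) and 3 falls (Itgb2 and Itgal among them) among 18 tested of 20 listed (median -0.43). Itgal, which encodes an integrin chain of leukocytes, stood in males at 58.1 and 50.1 CPM in the young and 6.75 and 0 CPM in the old libraries.

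Of the lists for other cell types, neutrophil genes fell in 4 of 7 tested, plasma cell genes in 3 of 6 (Jchain, Igha and Xbp1), basophil and mast cell genes in 2 of 8 (Cpa3 and Ms4a2) and B cell genes in 1 of 5 (Igkc), and none rose. These counts are over both sexes. With all cells the sexes went opposite ways in the plasma and B cell lists, as given with each sex. Without the 19 cells rich in immunoglobulin or neutrophil UMIs, male levels of Igha overlapped between the ages. They were 68.6 and 32.1 CPM in young and 52.0 and 36.5 CPM in old males. Igkc then stood at 177.5 and 87.8 CPM in young and 271 and 399 CPM in old males. In females both genes stayed lower in the old libraries. Over both sexes and with all cells, none passed among the 5 granulocyte-macrophage progenitor genes and 4 monocyte genes tested. The same held for the 1 T or natural killer gene and 1 endothelial gene tested, and no erythroid gene of that list was tested. Of the Mk list 2 genes were tested, and Pf4 fell.

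**Figure D5:**
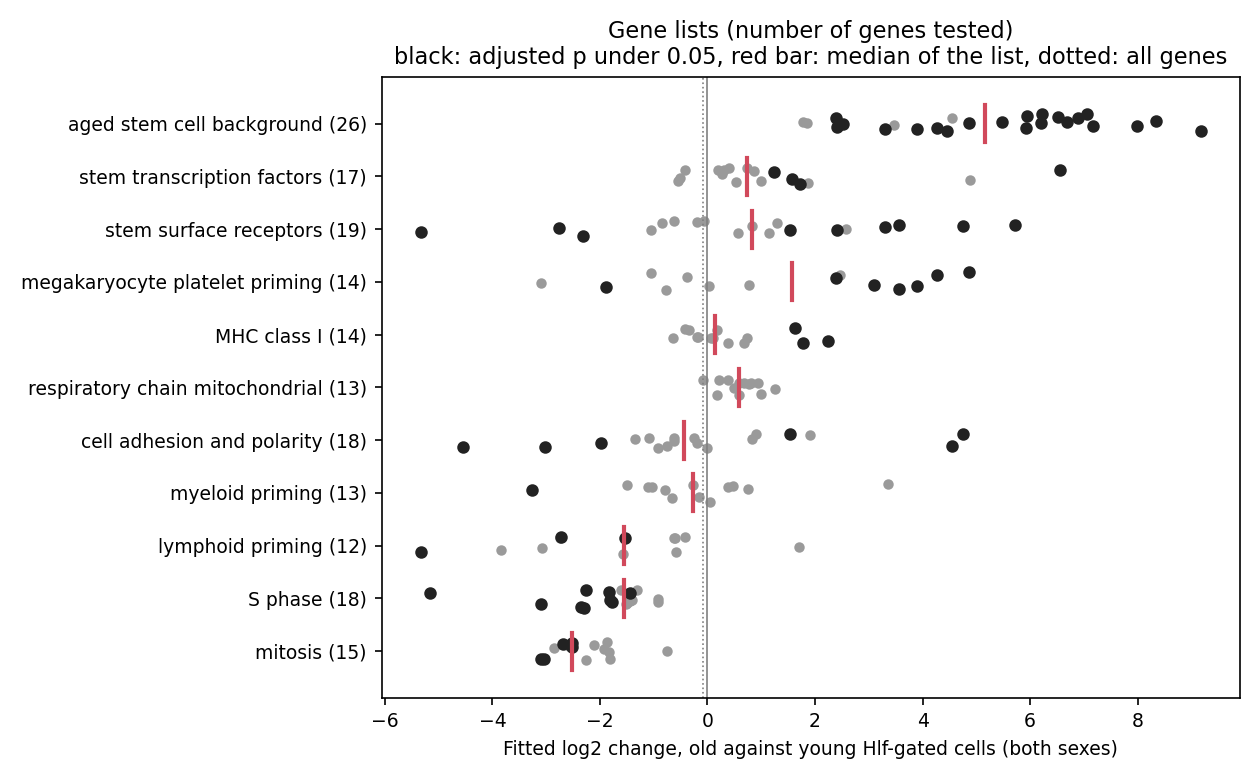
Fitted log2 change with age (x axis, old against young, both sexes) of the tested genes of 11 lists (y axis, number tested). Black points had an adjusted p under 0.05 and grey points did not, red bars are list medians and the dotted line is the median of all genes. The aged stem cell list has its median at 5.17, and S phase and mitosis genes at -1.56 and -2.51.

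Within females 86 genes changed (1.20%), 51 up (0.713%) and 35 down (0.489%), on 15 young and 12 old cells. No gene passed when either young female or either old male library was left out. The 5 largest rises were Il1rapl2, Ncam2, B3galt1, Pdgfd and Prdm16, each at 0 in both young female libraries. B3galt1, a galactosyltransferase, stood at 727 and 444 CPM in old females, at least 60.3-fold higher (edgeR adjusted p = 0.015), and Pdgfd, a platelet-derived growth factor, at 810.4 and 148 CPM (at least 54.5-fold, edgeR adjusted p = 0.0291). The 5 largest falls were the antibody genes Jchain, Igha, Iglc2 and Igkc and the sialyltransferase St6gal1. Igkc stood at 63788 and 44494 CPM in young females and 109 and 10.6 CPM in old females, and at 635 and 166 CPM in young females without the 19 cells rich in immunoglobulin or neutrophil UMIs. Of the aged stem cell list 4 of 26 genes rose in females.

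Within males 125 genes changed (1.75%), 101 up (1.41%) and 24 down (0.335%), on 61 young and 121 old cells. No gene passed when any 1 of the 4 male libraries was left out. The largest rises were Kcnb2, Nupr1, Matn4, Cacna1d and Il1rapl1, and the largest falls included BC035044, Ube2c, Ccnb2 and Spag5. Matn4, an extracellular matrix protein that restrains stem cell division, was at 0 and 0 CPM in young and 95.8 and 82.2 CPM in old males, at least 40.9-fold higher (edgeR adjusted p = 0.0292). Ube2c and Ccnb2, which act at the exit from and entry into mitosis, fell from 67.3 and 138 to 4.05 and 6.16 CPM and from 60.7 and 91.8 to 6.75 and 2.05 CPM (edgeR adjusted p = 0.034 for both). Of the aged stem cell list 17 of 26 genes rose in males, of the mitosis list 6 of 15 fell and of the S phase list 1 of 18. The number of genes that passed in each sex is not a difference between the sexes. Tested directly, the age change differed between the sexes for 1 gene (0.0140%), St6gal1, and 604 genes had an unadjusted p under 0.05. Between males and females over both ages 1 gene differed (0.0140%), the Y-linked Uty, which stood at 0 to 6.43 CPM in female and 172 to 309 CPM in male libraries, with 491 genes at an unadjusted p under 0.05. DESeq2 called 32 and 19 genes in these tests. Immediate early genes, which respond to growth and stress signals within minutes, had a median log2 change of -1.11 in females, where Ier2 fell (edgeR adjusted p = 0.031) and 3 of 17 were positive, and of 1.13 in males, where 17 of 17 were positive, 7 had an unadjusted p under 0.05 and none passed. Ier2 stood at 116 and 147 CPM in young and 368 and 347 CPM in old males, and 271 and 225 CPM in young and 57.9 and 52.8 CPM in old females. In the direct test of the sexes none of the 17 passed and 10 had an unadjusted p under 0.05. The Mk barcodes had the same order. Their summed list stood at 2474 and 2979 CPM in young and 4641 and 4519 CPM in old males, and 1924 and 1554 CPM in young and 1472 and 1347 CPM in old females. This order is thus not particular to the Hlf-gated cells. MHC class II genes had a median of -2.88 in females and 1.75 in males, with 3 of 5 at an unadjusted p under 0.05 in the direct test and none passing. B cell genes had a median of -7.80 in females, where 2 of 5 fell, and of 2.28 in males, where 5 of 5 were positive and none passed. Plasma cell genes had a median of -9.53 in females, where 4 of 6 fell, and of 3.30 in males, where 5 of 6 were positive and none passed. These levels rested on few cells. Without the 19 cells rich in immunoglobulin or neutrophil UMIs, Igha stood at 68.6 and 32.1 CPM in young and 52.0 and 36.5 CPM in old males. With all cells the old male femur held 1156 CPM of Igha. Igkc without the 19 cells stood at 177.5 and 87.8 CPM in young and 271 and 399 CPM in old males. In the direct test all 5 B cell and all 6 plasma cell genes had an unadjusted p under 0.05, and none passed.

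The age change in the Hlf-gated sums was set against that in the Mk barcodes in a fit with both classes of each library, with library as a block. The change differed for 169 of 12907 genes (1.31%), 110 with a higher change in Hlf-gated cells (0.852%) and 59 with a lower one (0.457%). The 5 largest on each side were Nupr1, Ncam2, Dnm3, Il1rapl2 and Il1rapl1, and Uhrf1, Zfp367, Alox5, Slc9a9 and Itgal. Il1rapl2 rose in Mk as well, from 6.54 to 35.7 CPM in female and 9.10 to 100.2 CPM in male Mk pools, against 0 to 2459 and 34.6 to 1860.0 CPM in Hlf-gated cells (log2 difference of the changes 8.56 ± 1.20 SE, edgeR adjusted p = 0.00529). Uhrf1 stood at 84.4 and 101 CPM in young and old female Mk and 97.7 and 83.7 CPM in male Mk, against 82.2 and 0 and 94.3 and 22 CPM in Hlf-gated cells (edgeR adjusted p = 0.00512). Alox5, the 5-lipoxygenase of leukotriene synthesis, stood at 28.6 and 22.9 CPM in female and 17.8 and 14.1 CPM in male Mk, against 171 and 4.00 and 42.0 and 3.26 CPM in Hlf-gated cells (edgeR adjusted p = 0.00765). Of the aged stem cell list 12 of 28 genes had a higher change than in Mk, of the S phase list 6 of 20 and of the mitosis list 2 of 20 a lower one. The aged stem cell list holds the 4 genes put there from these libraries, Il1rapl2 among them. The gate also took cells with different levels of its own genes at each age, so these counts are descriptions.

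Since both classes were cut from expression, the levels beside Mk and beside granulocyte-macrophage progenitors (kept barcodes with at least 3 of Mpo, Elane, Prtn3, Ctsg and Ms4a3) are descriptions. Against Mk 3151 of 12907 genes (24.4%) and against the progenitors 3933 of 9354 (42.0%) passed, and nothing is read from these counts. The 10 genes furthest above Mk were Mpo, Ctsg, Rab44, Atp8b4, Lgals1, BC035044, Cpa3, Clec12a, Plac8 and Hk3, many of them genes of myeloid progenitors. Atp8b4, a phospholipid flippase found in stem and progenitor cells, averaged 431 CPM over the Hlf-gated sums and 7.77 CPM over the Mk sums, and was lowest in old males (83.6 and 181 CPM) and highest in the old female femur (1132 CPM). Mpo averaged 1295 and 5.81 CPM but ranged from 62.1 to 4078 CPM between the Hlf-gated sums, so it marked some libraries more than others. In the 4 male libraries, the ones with at least 20 cells of both classes, the 10 genes furthest above the progenitors were Plcl1, Fgd5, Samd12, Tox, Nkx2-3, Il1rapl2, Lhcgr, Ghr, Cpne8 and Magi2. Plcl1, a phospholipase C-like protein, averaged 667 CPM against 0.989 CPM, and Fgd5 62.8 CPM against 0.164 CPM.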

How the data were processed

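The files hold gene by barcode matrices of UMI counts for 8 libraries (25906 genes), deposited by the authors as raw counts without normalization. The submitters' processing notes name Cell Ranger 7.2.0, Seurat 5 and the mm10 and GRCm39 builds, of which the study's methods give mm10. The Hlf-gated cells and all gene lists were chosen with earlier results of these data known. Counts of the chosen barcodes were summed per library and tested with edgeR 4.0.16 (quasi-likelihood test, 4 groups of 2 libraries, TMM scaling, filterByExpr, Benjamini-Hochberg adjustment), under R 4.3.3 and limma 3.58.1. Bones were taken from the labels, while the names of the deposited femur matrices speak of fibula, so the bone of these libraries is not settled. The comparison with Mk used 16 sums with library as a block. Shares were compared by exact two-sided permutation of the 8 libraries (scipy 1.17.1), and doublets were called with Scrublet (scanpy 1.11.5) but kept. The fit was also run on simulated counts, and no result of that run is reported or used here. For the shares of cells with listed genes, each cell was thinned to 1000 UMIs, which left out 4 shallower cells, all from the old male tibia.

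Named genes were the 10 largest rises and 10 largest falls past an adjusted p of 0.05, provided that the gene averaged 20 CPM or more and changed in 1 direction in either sex and bone (gate and Y-linked genes left out). In each sex and against Mk 5 were taken on each side, and 10 for the levels beside other classes, with at least 50 CPM and a higher level in every library. Other genes named are list members. Alternatives were DESeq2 1.42.0, upper-quartile scaling, no abundance filter, bone as a block, sums per pool, removal of doublets, thinning, other gate limits, a stricter cell filter (1000 genes, 10% mitochondrial UMIs) and each library left out. The alternatives without the 19 cells rich in immunoglobulin or neutrophil UMIs, and with Hlf at 2 or more UMIs for gene tests, were chosen after seeing the data. Gene positions are those of GENCODE on mm10. Some items are not reported here.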

Additional observations from a re-analysis of the deposited data

Results flagged for a closer look

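St6gal1, a sialyltransferase of B cells and liver, was the only gene whose age change differed between the sexes (edgeR adjusted p = 0.0331 for the male minus female change). It stood at 264 and 244 CPM (femur, tibia) in young and 0 and 0 CPM in old female libraries, and at 0 and 0 CPM in young and 44.5 and 24.7 CPM in old male libraries, so both bones moved one way in females and the other way in males. Without the 19 cells rich in immunoglobulin or neutrophil UMIs it stood at 248 and 31.7 CPM in young females and 12.7 and 2.15 CPM in old males, and no gene passed the test of the difference between the sexes.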

How the results depend on the processing

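The number of calls moved with the tool, the abundance filter, the cells kept and the libraries used. For age over both sexes DESeq2 called 767 genes, no abundance filter 1247, sums per pool 242, thinning to 1000 UMIs 33 of 361 tested, at least 4 markers 155, the stricter cell filter 322, and no Mk gate gene 0 of 1632 tested (73 at an unadjusted p under 0.05). For females these settings gave 324, 639 and, in turn, 17 (thinning), 7 (4 markers) and 0 (no Mk gene, 124 at an unadjusted p under 0.05). For males DESeq2 gave 246, no abundance filter 747, thinning 1, 4 markers 54, no Mk gene 0 (102 at an unadjusted p under 0.05), the stricter filter 21 and Hlf at 2 or more UMIs 245. The sex difference of the age change had 32 genes with DESeq2, 146 without the abundance filter, 3 without doublets, 3 with thinning, 9 with no Mk gene, and 0 with 4 markers, the stricter filter, Hlf at 2 or more UMIs or without the 19 cells rich in immunoglobulin or neutrophil UMIs (315, 506, 498 and 475 at an unadjusted p under 0.05). The sex difference had 19 genes with DESeq2, 78 without the filter, 2 with Hlf at 2 or more UMIs, and 0 with thinning, 4 markers or no Mk gene (38, 305 and 80 at an unadjusted p under 0.05). Thinning left 1211 genes against Mk, 9 for the change against that of Mk (544 without the filter) and 486 against progenitors. The cause of these differences was not tested, except that several settings hold fewer cells or genes.

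Leaving out 1 library gave 49 to 2010 genes for age, 0 to 1167 in females, 0 to 687 in males, 0 to 39 for the sex difference of the age change, 0 to 24 for sex, 2511 to 4904 against Mk, 140 to 2124 for the change against that of Mk and 2447 to 3626 against progenitors. The difference in the share of Hlf-gated cells ranged from 0.647 to 1.25 points, and was 0.919 with Hlf at 2 or more UMIs, a limit on the gate gene itself (exact permutation p = 0.0286). The S phase difference ranged from -40.1 to -26.8 points, and was -20.1 without thinning (exact permutation p = 0.143), -39.6 at 2000 UMIs and -17.8 with at least 3 genes (exact permutation p = 0.114). The mitosis difference ranged from -21.3 to -15.2 points and was -39.6 without thinning and -16.2 at 2000 UMIs (exact permutation p = 0.143), and the platelet difference ranged from 6.88 to 18.2 points and was 39.7 at 2000 UMIs and 4.91 with at least 3 genes.

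Rises made up 63.2% of the age calls, but 78.9% with Hlf at 2 or more UMIs, 83.2% with 4 markers, and between 42.4% (without the old female tibia) and 91.8% (without the old male femur) with 1 library left out. Of the 506 calls every one tested kept its sign with DESeq2, upper-quartile scaling and each library left out, as did 463 of 467 with Hlf at 2 or more UMIs and 408 of 414 with 4 markers. The labels give no replicate numbers, and bone was used as the replicate block: 401 genes were called for age, 99 in females, 79 in males, 4 for the sex difference of the age change and 1 for sex. The female sums rest on 27 cells.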
